A study of Mus musculus with 4 samples.

Results

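Genes of the pancreatic acinar cell were followed across 4 arrays of mouse subcutaneous adipose tissue. The genes were a list of 33 symbols drawn up by cell type, covering digestive enzymes, their cofactors, zymogen granule proteins, regenerating proteins and a few other secreted proteins. The list was chosen with earlier results of these data known, so that its counts describe these arrays and are no independent test. Of the 33, 30 were measured, each through 1 probe set that names only that gene, out of 19938 genes on the arrays. The 3 others had no probe set of their own: *Prss1* is named only by probe sets shared with other trypsin genes, and *Pnlip* and *Klk1* are not analysed here. The study deleted *Napepld*, which encodes an enzyme that makes N-acylethanolamines, in adipose tissue. The tissue came from male C57Bl6 mice aged 16 weeks that had been fed for 8 weeks. The cKO-CT group carried AP2 Cre and floxed *Napepld* alleles (AP2 Cre NAPE PLD lox/lox) and ate the control diet AIN93M. The WT-HFD group carried the floxed alleles without Cre (NAPE PLD lox/lox) and ate the high fat diet D12492. The cKO-HFD group combined Cre with the high fat diet. The WT-CT group, again floxed without Cre, ate the control diet. All mice thus carried floxed alleles. The Cre was driven by the *Fabp4* promoter (aP2 is another name of *Fabp4*), so that cells of the tissue that do not use this promoter keep the gene. RNA of 4 to 5 mice was pooled within each group, and each pool was hybridised to 1 MoGene 1.0 ST array, so there were no replicates, and no difference given here has a test or an error from mice.

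Acinar cells make up most of the exocrine pancreas and secrete proenzymes, which are packed in zymogen granules and activated in the gut lumen. Their enzyme genes are driven by PTF1, a complex of PTF1A, an E protein and RBPJL, together with NR5A2, while BHLHA15 (MIST1) maintains the secretory machinery. Adipose tissue has no acinar cells of its own. Some of the listed genes are also used elsewhere, such as *Tff2* in the stomach, *Dmbt1* in several mucosal epithelia and *Zg16* in intestinal goblet cells.

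Levels are log2 values that the authors made by RMA, and a difference of 1 is a 2-fold difference. In place of a detection test, the 95th percentile of the 1027 olfactory receptor (*Olfr*) genes served as the background of each array. This was 5.28 on cKO-CT, 5.42 on WT-HFD, 5.50 on cKO-HFD and 5.39 on WT-CT. Where a gene lay at or below the background on the dimmer of 2 arrays, its fold is given as a lower bound ("at least"), the brighter level being set against the higher of that background and the gene's own dim level. Where it lay at or below the background on both arrays, no fold is given. Where 3 folds stand together, they are those of cKO-CT, then WT-HFD, then cKO-HFD, each against WT-CT. A difference of 1.5-fold or more, the size used in the study, counted as higher or lower. *Napepld* itself stood at 7.78 on cKO-CT, 8.01 on WT-HFD, 7.94 on cKO-HFD and 8.31 on WT-CT, and was thus below the array of the same diet without Cre on both Cre arrays, by less than 1.5-fold. The adipocyte genes *Adipoq* (12.66 on cKO-CT, 12.59 on WT-HFD, 12.70 on cKO-HFD and 12.44 on WT-CT) and *Fabp4* (13.04 to 13.11 over the 4 arrays) were high throughout. Across genes, the correlation between arrays lay between 0.980 and 0.989. Having 1 array per group limits the precision of every value below.

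The promoters of the listed genes were read because many of the genes, though not all, stood higher on WT-CT than on the other arrays. RefSeq windows of GRCm38.p6, which run from 250 bases before to 50 bases after a gene's start, were found for 26 of the 33 genes, and the other 7 had none. The motif CACCTG, the E-box of the PTF1 site, was in 16 of the 26 windows (61.5%), against 20.2% of 32851 windows of all genes, counting both strands. Among the 16 were genes in the background on all 4 arrays, such as *Serpini2* and *Try4*. *Prss1* and *Klk1*, without a probe set of their own, were also among them. TTTCCC, its TC-box, was in 9 (34.6%, against 25.2%), and both boxes were in 6 (23.1%, against 4.86%). AAGGTCA, a core site of NR5A2, was in 4 (15.4%, against 4.72%), and CAGCTG, an E-box of the kind that BHLHA15 binds, in 6 (23.1%, against 16.3%). A match is a description of the letters and not a bound site. The windows below belong to genes that stood far above the other arrays on WT-CT (*Ctrb1*, *Cpa1*, *Cpb1* and *Cel*) and to *Cela1*, which did not pass 1.5-fold although its window held all 4 motifs. Capitals mark the E-box of either kind or the TC-box, read on either strand. Each is written 5′ to 3′ along its gene. They are chr8:111690961-111691260 (minus strand), chr6:30638968-30639267 (plus strand), chr3:20275684-20275983 (minus strand), chr2:28563354-28563653 (minus strand) and chr15:100687871-100688170 (minus strand).
Ctrb1: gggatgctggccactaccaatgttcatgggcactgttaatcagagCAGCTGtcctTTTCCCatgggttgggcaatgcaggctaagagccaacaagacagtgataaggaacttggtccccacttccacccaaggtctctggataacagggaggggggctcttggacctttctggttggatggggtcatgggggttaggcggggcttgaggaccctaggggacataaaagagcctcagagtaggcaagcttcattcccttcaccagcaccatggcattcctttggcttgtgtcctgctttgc
Cpa1: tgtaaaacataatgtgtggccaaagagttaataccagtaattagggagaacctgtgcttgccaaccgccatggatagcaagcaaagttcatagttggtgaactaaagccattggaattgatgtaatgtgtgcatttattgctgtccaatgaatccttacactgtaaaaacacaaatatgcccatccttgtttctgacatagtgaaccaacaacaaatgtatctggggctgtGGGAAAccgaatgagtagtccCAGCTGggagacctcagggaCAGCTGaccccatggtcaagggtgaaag
Cpb1: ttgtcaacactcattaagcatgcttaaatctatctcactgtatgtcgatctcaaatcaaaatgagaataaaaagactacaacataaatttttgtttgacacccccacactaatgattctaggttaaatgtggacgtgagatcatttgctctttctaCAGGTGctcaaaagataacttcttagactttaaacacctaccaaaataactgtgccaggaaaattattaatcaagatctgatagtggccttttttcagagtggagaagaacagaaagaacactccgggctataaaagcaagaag
Cel: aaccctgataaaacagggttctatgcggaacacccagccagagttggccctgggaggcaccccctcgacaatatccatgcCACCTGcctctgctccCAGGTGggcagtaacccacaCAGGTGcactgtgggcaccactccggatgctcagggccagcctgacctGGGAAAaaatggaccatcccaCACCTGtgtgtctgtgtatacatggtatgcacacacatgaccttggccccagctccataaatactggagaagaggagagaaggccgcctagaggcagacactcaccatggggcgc
Cela1: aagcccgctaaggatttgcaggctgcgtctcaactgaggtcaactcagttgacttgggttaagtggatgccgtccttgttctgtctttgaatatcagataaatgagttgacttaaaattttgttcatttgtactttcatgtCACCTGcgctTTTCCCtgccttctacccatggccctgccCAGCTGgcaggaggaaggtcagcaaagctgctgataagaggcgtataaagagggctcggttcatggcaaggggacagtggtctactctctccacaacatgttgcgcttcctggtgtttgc
In the *Cela1* window a CACCTG that begins 109 bases before the start was followed, 4 bases after its end, by TTTCCC. The *Ctrb1* window held CAGCTG 205 bases before the start with the same 4-base gap to TTTCCC. An E-box, 4 bases and the TC-box on one strand (CANNTGNNNNTTTCCC), a pattern searched after these windows had been seen, was in 3 of the 26 windows (*Prss1*, *Ctrb1* and *Cela1*, 11.5%) and in 31 of the 32851 (0.0944%). The matches of *Ctrb1* and *Cela1* were known before the pattern was written, so that setting these shares side by side is not a test. The *Cel* window held 4 copies of CACCTG and 1 TTTCCC, the *Cpb1* window 1 CACCTG, and the *Cpa1* window 1 TTTCCC and 2 CAGCTG. The windows of *Sycn*, *Rnase1*, *Pla2g1b*, *Gp2*, *Pnlip* and *Pnliprp1* held none of the 4 motifs. By chromosome, 11 of the 33 genes lay on chromosome 6, which carries the trypsinogen and *Reg* clusters, and 6 on chromosome 7.

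The serine proteases other than trypsins showed the WT-CT array apart from the 3 others. *Ctrb1* encodes chymotrypsinogen B, a major zymogen of the pancreas. It stood at 5.39 on cKO-CT, 5.75 on WT-HFD, 5.55 on cKO-HFD and 8.62 on WT-CT. It was above the background on all 4 arrays, and its level was 9.36-fold lower on cKO-CT, 7.33-fold lower on WT-HFD and 8.42-fold lower on cKO-HFD than on WT-CT. *Ctrl*, a chymotrypsin-like protease, stood at 5.20 on cKO-CT, 5.34 on WT-HFD, 5.31 on cKO-HFD and 7.04 on WT-CT. It passed the background on WT-CT alone, so that the others were at least 3.39-fold, 3.07-fold and 2.91-fold lower. Of the elastases, *Cela2a* stood at 6.08 on cKO-CT, 6.03 on WT-HFD, 5.93 on cKO-HFD and 6.86 on WT-CT, so that the others were 1.72-fold, 1.77-fold and 1.90-fold lower. *Cela3b* stood at 4.73 on cKO-CT, 4.85 on WT-HFD, 4.76 on cKO-HFD and 5.72 on WT-CT, so that the others were at least 1.36-fold, 1.23-fold and 1.17-fold lower. *Cela1* and *Ctrc* did not share the size of this pattern. *Cela1*, the elastase whose window is shown above, was at 6.15 on cKO-CT, 6.28 on WT-HFD, 6.24 on cKO-HFD and 6.54 on WT-CT, a difference of 1.31-fold at most. *Ctrc*, chymotrypsin C, which cleaves trypsinogens, was at 5.40 on cKO-CT, 5.52 on WT-HFD, 5.45 on cKO-HFD and 5.40 on WT-CT, near the background throughout.

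**Figure D1:**
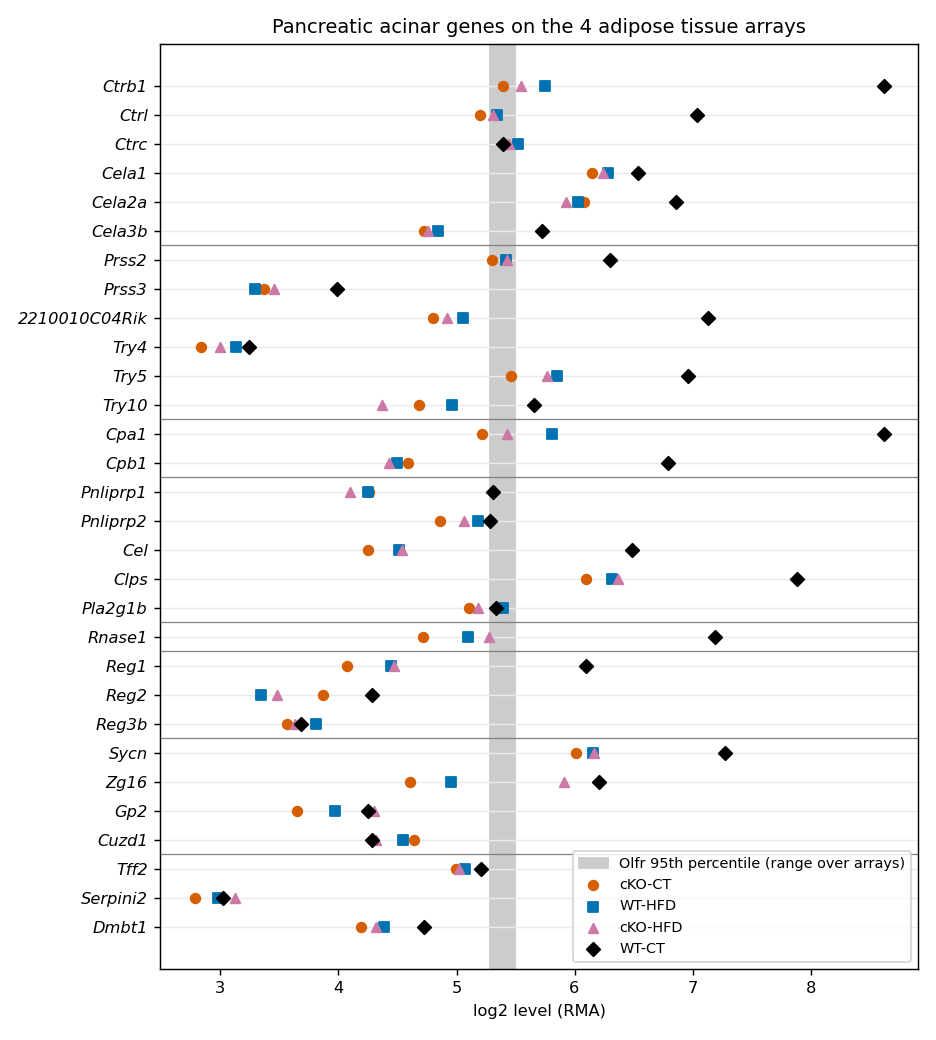
Log2 level (horizontal axis) of the 30 measured acinar genes, 1 gene a row in groups by role, on the cKO-CT, WT-HFD, cKO-HFD and WT-CT arrays (1 point per array), with the range of the *Olfr* 95th percentile in grey. The WT-CT points of *Ctrb1* and *Cpa1* stand at 8.62 with the other 3 arrays between 5.21 and 5.81, while genes such as *Ctrc* and *Reg3b* have 4 points together.

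The trypsinogens start the activation of the other zymogens in the gut. *2210010C04Rik*, a trypsinogen-family gene, stood at 4.80 on cKO-CT, 5.05 on WT-HFD, 4.92 on cKO-HFD and 7.13 on WT-CT, where alone it passed the background. On the others it was at least 3.61-fold, 3.28-fold and 3.11-fold lower. *Try5* stood at 5.46 on cKO-CT, 5.85 on WT-HFD, 5.77 on cKO-HFD and 6.96 on WT-CT, the others being lower by 2.82-fold, 2.16-fold and 2.29-fold. *Prss2*, the anionic trypsinogen, stood at 5.30 on cKO-CT, 5.42 on WT-HFD, 5.43 on cKO-HFD and 6.30 on WT-CT. This was 2.01-fold lower on cKO-CT and at least 1.85-fold and 1.75-fold lower on WT-HFD and cKO-HFD. *Try10* was at 4.68 on cKO-CT, 4.96 on WT-HFD, 4.37 on cKO-HFD and 5.65 on WT-CT, so that the others were at least 1.30-fold, 1.18-fold and 1.11-fold lower. *Prss3* and *Try4*, with levels of 2.84 to 3.99, never reached the background. The trypsinogens are close copies of one another, and how far each probe set reads its neighbours was not tested.

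The carboxypeptidases remove the last amino acid of a peptide, and both of those listed were far higher on WT-CT than on the other arrays. *Cpa1*, which takes off aromatic and branched aliphatic residues, stood at 5.21 on cKO-CT, 5.81 on WT-HFD, 5.43 on cKO-HFD and 8.62 on WT-CT. It was at least 10.1-fold lower on cKO-CT, 7.02-fold lower on WT-HFD and at least 8.69-fold lower on cKO-HFD. *Cpb1*, which takes off lysine and arginine, stood at 4.59 on cKO-CT, 4.49 on WT-HFD, 4.43 on cKO-HFD and 6.79 on WT-CT, so that the others were at least 2.85-fold, 2.59-fold and 2.45-fold lower.

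Fat digestion was represented by 5 measured genes. *Clps*, colipase, which anchors pancreatic lipase to the fat droplet, stood at 6.10 on cKO-CT, 6.32 on WT-HFD, 6.37 on cKO-HFD and 7.88 on WT-CT, the others being lower by 3.45-fold, 2.96-fold and 2.86-fold, with all 4 arrays above the background. *Cel*, the bile salt-dependent lipase, stood at 4.25 on cKO-CT, 4.51 on WT-HFD, 4.54 on cKO-HFD and 6.49 on WT-CT, so that the others were at least 2.31-fold, 2.10-fold and 1.98-fold lower. The rest lay in the background on all 4 arrays. These were *Pnliprp1* (4.26 on cKO-CT, 4.25 on WT-HFD, 4.10 on cKO-HFD and 5.31 on WT-CT), the galactolipase *Pnliprp2* (4.86 to 5.28) and the phospholipase *Pla2g1b* (5.11 to 5.39).

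Among the remaining secreted proteins, *Rnase1* encodes the pancreatic ribonuclease. It stood at 4.71 on cKO-CT, 5.09 on WT-HFD, 5.28 on cKO-HFD and 7.19 on WT-CT, so that the others were at least 3.76-fold, 3.41-fold and 3.23-fold lower. *Reg1*, a C-type lectin first known from the regenerating pancreas, stood at 4.07 on cKO-CT, 4.45 on WT-HFD, 4.47 on cKO-HFD and 6.10 on WT-CT, so that the others were at least 1.76-fold, 1.60-fold and 1.51-fold lower. Its relatives *Reg2* (3.34 to 4.28) and *Reg3b* (3.56 to 3.81) stayed in the background. So did *Tff2* (4.99 to 5.21), the pancreatic serpin *Serpini2* (2.78 to 3.12) and *Dmbt1* (4.19 to 4.72).

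The zymogen granule proteins did not behave as one. *Sycn*, syncollin, which lines the inner face of the granule membrane, stood at 6.02 on cKO-CT, 6.16 on WT-HFD, 6.16 on cKO-HFD and 7.27 on WT-CT, the others being lower by 2.39-fold, 2.16-fold and 2.16-fold. *Zg16*, a lectin of the granule, stood at 4.61 on cKO-CT, 4.96 on WT-HFD, 5.91 on cKO-HFD and 6.21 on WT-CT. It was at least 1.90-fold and 1.72-fold lower on cKO-CT and WT-HFD, and 1.23-fold lower on cKO-HFD, where it passed the background. *Gp2*, the main glycoprotein of the granule membrane (3.65 on cKO-CT, 3.97 on WT-HFD, 4.30 on cKO-HFD and 4.25 on WT-CT), and *Cuzd1*, another granule membrane protein (4.64, 4.55, 4.32 and 4.28 in that order of arrays), lay in the background on all 4.

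Over the 30 genes, each comparison was read for how many differed by 1.5-fold and in which direction. Because the list was chosen with earlier results known, the shares of all genes set beside these counts are descriptions and not a test. In cKO-CT over WT-CT, 19 of the 30 were lower by 1.5-fold, against 1.52% of all 19938 genes, and 0 were higher, against 1.64%. In WT-HFD over WT-CT, 19 were lower, against 2.67% of all genes, and 0 were higher, against 3.16%. In cKO-HFD over WT-CT, 17 were lower, against 3.41% of all genes, and 0 were higher, against 3.36%. The median log2 ratios of the 30 genes were -0.99, -0.88 and -0.90 in these 3 comparisons, where those of all genes were -0.0050, -0.0040 and 0.013. With each gene placed at its bound, and those without a fold at 0, these medians were -0.42, -0.28 and -0.26, and 14, 14 and 13 genes were lower by 1.5-fold. The share of all genes lower at the bound was not taken. Of the genes called lower, 6, 6 and 5 were measured above the background on both arrays, 10 in each comparison had a bound only, and 3, 3 and 2 lay in the background on both arrays. Of the 1027 *Olfr* genes, 23, 16 and 7 were lower by 1.5-fold and 8, 28 and 49 were higher. These 3 comparisons share the WT-CT array, and their values are 1 level set against 3. In bulk tissue the cells that gave these transcripts cannot be told, nor can the number of cells of a type be told apart from RNA per cell.

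**Figure D2:**
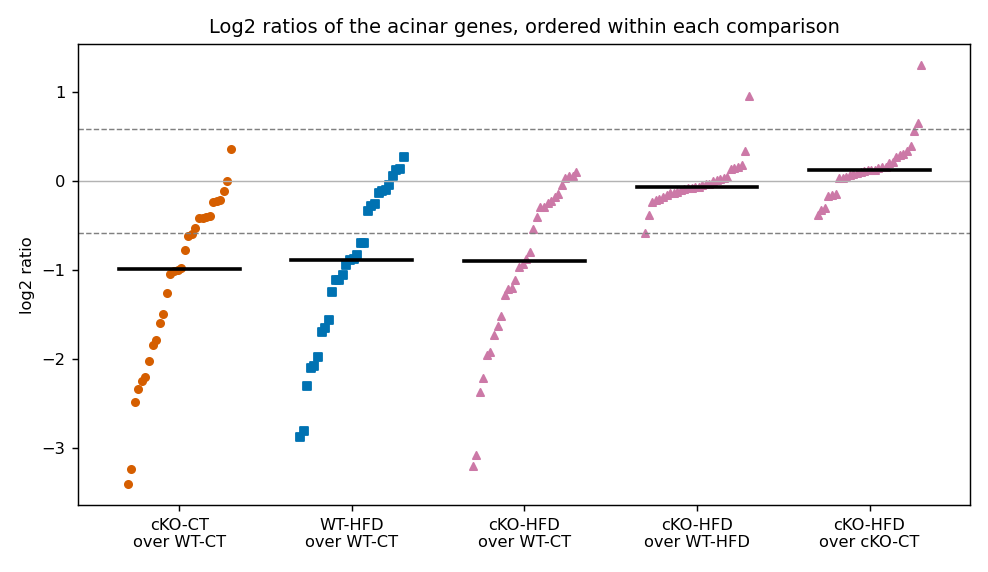
Log2 ratio (vertical axis) of each of the 30 measured acinar genes in 5 comparisons, ordered by size within each, with the median as a bar and 1.5-fold as dashed lines. The medians of the 3 comparisons over WT-CT are, from left to right, -0.99, -0.88 and -0.90, and those of cKO-HFD over WT-HFD and over cKO-CT are -0.07 and 0.12.

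The 2 comparisons that leave out the WT-CT array gave other values. In cKO-HFD over WT-HFD, 1 gene was lower by 1.5-fold, *Try10* (-0.59 on the log2 scale and below the background on both arrays), against 2.11% of all genes. There 1 gene was higher, *Zg16* (0.95), against 1.04% of all genes, but at its bound it was at least 1.40-fold higher, short of 1.5-fold. The median log2 ratio was -0.07, where that of all genes was 0.027. In cKO-HFD over cKO-CT, where diet differed within the deletion, 0 genes were lower, against 2.17% of all genes. There 2 were higher, *Zg16* (1.30, at least 1.54-fold at its bound) and *Gp2* (0.65, below the background on both arrays), against 1.82%, with a median of 0.12. In each of these comparisons 21 of the 30 genes lay in the background on both arrays, and the median at the bound was 0, so that these arrays were compared mostly at the background. Among genes above the background on all 4 arrays, the log2 ratio of *Ctrb1* was -0.20 in cKO-HFD over WT-HFD and 0.15 in cKO-HFD over cKO-CT. That of *Clps* was 0.05 and 0.27, and that of *Cela2a* -0.10 and -0.15. Across the 3 arrays other than WT-CT, the range of a gene's level had a median of 0.28 over the 30 genes and 0.24 over all genes. It reached 1.5-fold in 4 of the 30 (*Cpa1*, *Try10*, *Zg16* and *Gp2*), each with a level in the background on at least 1 of these arrays, against 6.68% of all genes. With WT-CT included, the median range was 1.0 over the 30 genes and 0.32 over all genes.

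*Zg16* passed 1.5-fold by its measured levels in both of these comparisons, and at its bound only in cKO-HFD over cKO-CT. The intestine also uses this gene. Of 18 intestine and stomach markers, 17 were measured and 7 lay above the background on each array, with summed linear levels of 1040 on cKO-CT, 1253 on WT-HFD, 1717 on cKO-HFD and 824 on WT-CT. On cKO-HFD the highest levels in this sum were those of *Lipf* (9.29) and *Lyz1* (8.18). The median log2 ratio of the list was 0.18 in cKO-HFD over WT-CT, where *Cdx1* (0.18) and *Tff3* (0.32) did not pass 1.5-fold. On cKO-HFD, 5 of the 17 were higher than on WT-CT by 1.5-fold, against 3.36% of all genes, among them the apolipoprotein *Apoa4* (5.65 on cKO-CT, 5.73 on WT-HFD, 7.75 on cKO-HFD and 5.79 on WT-CT) and the intestinal phosphatase *Alpi* (4.95, 4.98, 6.04 and 5.14 in that order). The gastric lipase *Lipf*, also among them, was at 7.15 on cKO-CT, 7.84 on WT-HFD, 9.29 on cKO-HFD and 5.65 on WT-CT. Also among the 5 were *Fabp2*, which defines enterocytes (3.91 on cKO-CT, 4.00 on WT-HFD, 5.16 on cKO-HFD and 3.93 on WT-CT), and *Sis* (3.41, 3.52, 4.30 and 3.40 in that order). Both were in the background on all 4 arrays, so that no fold is given for them. The part of these transcripts in the *Zg16* level was not tested.

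Counting detection alone, 8 of the 30 genes lay above the *Olfr* 95th percentile on cKO-CT, 8 on WT-HFD, 7 on cKO-HFD and 18 on WT-CT. The share of all genes above it was 60.1%, 58.3%, 57.1% and 59.4% on these arrays. Above it on all 4 arrays were *Ctrb1*, *Cela1*, *Cela2a*, *Try5*, *Clps* and *Sycn*. Above it on WT-CT alone were *Ctrl*, *Cela3b*, *2210010C04Rik*, *Try10*, *Cpb1*, *Cel*, *Rnase1* and *Reg1*. *Cpa1* passed it on WT-HFD and WT-CT, *Prss2* on cKO-CT and WT-CT, *Zg16* on cKO-HFD and WT-CT, and *Ctrc* on every array but cKO-HFD. The other 12 passed it on none of the 4 arrays.

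Asked array by array, no gene of the 30 stood above each of the other arrays by 1.5-fold on cKO-CT (0.0251% of all genes did), WT-HFD (0.853%) or cKO-HFD (0.291%). On WT-CT, 16 of the 30 did, against 0.461% of all genes. The 16 were *Ctrb1*, *Cpa1*, *Cpb1*, *2210010C04Rik*, *Cel*, *Rnase1*, *Ctrl*, *Reg1*, *Clps*, *Try5*, *Sycn*, *Pnliprp1*, *Prss2*, *Cela3b*, *Cela2a* and *Try10*. With levels in the background of the other arrays set to that background, 13 of the 30 did, against 0.361% of all genes, and *Cela3b*, *Try10* and *Pnliprp1* no longer passed. The highest of the 4 levels was that of cKO-CT for 1 gene, of WT-HFD for 3, of cKO-HFD for 2 and of WT-CT for 24. The linear levels of the 30 genes summed to 925 on cKO-CT, 1058 on WT-HFD, 1035 on cKO-HFD and 2783 on WT-CT. Of the 30 genes, 22, 22, 23 and 12 were in the background on these arrays. The sums thus hold background signal, and their ratios are not measured folds.

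**Figure D3:**
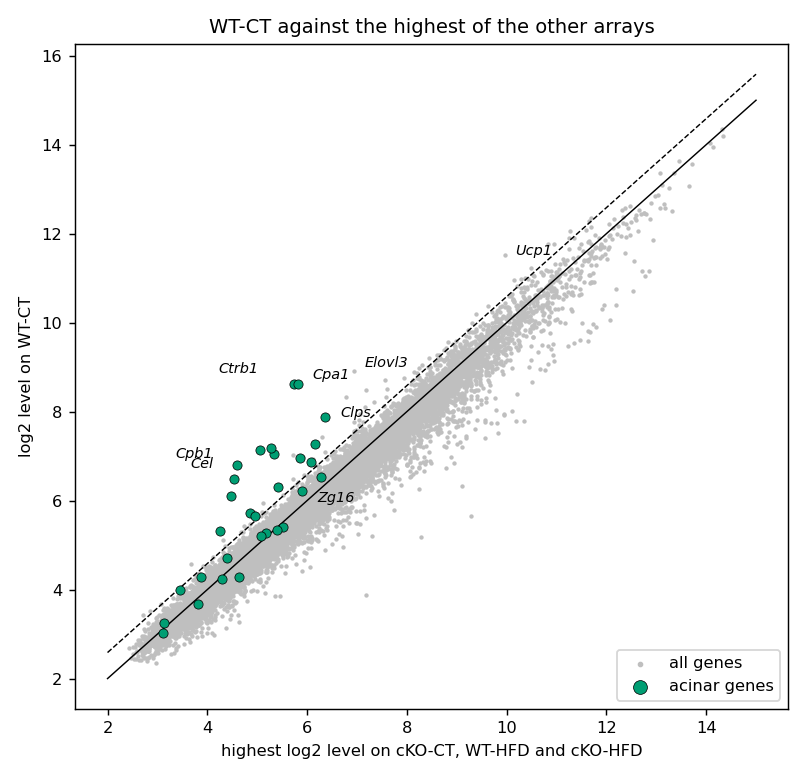
Log2 level on WT-CT (vertical axis) against the highest log2 level on the 3 other arrays (horizontal axis) for 19938 genes in grey, with the 30 acinar genes in green, equality as a solid line and 1.5-fold as a dashed line. *Ctrb1* and *Cpa1* lie 2.87 and 2.81 above the solid line, and 16 acinar genes lie above the dashed line by their measured levels, of which 13 stay 1.5-fold apart with levels in the background set to it.

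Outside the list, *Elovl3*, a fatty acid elongase of brown fat, and *Ucp1*, the uncoupling protein of brown fat, were also above each other array on WT-CT. *Elovl3* stood at 6.94 on cKO-CT, 4.04 on WT-HFD, 4.97 on cKO-HFD and 8.91 on WT-CT, and *Ucp1* at 9.96, 7.10, 6.74 and 11.52 in the same order of arrays. On cKO-CT both lay above their levels on the high fat arrays.

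Lists of other cell types were read on the same arrays. Of 32 other acinar enzymes and secreted proteins, 22 were measured. Their median log2 ratios were -0.08, -0.05 and 0.00 in the 3 comparisons over WT-CT (cKO-CT first, cKO-HFD last). In each, 0 were lower by 1.5-fold, against 1.52%, 2.67% and 3.41% of all genes. Of the 22, 14 were in the background on WT-CT, and those above it include genes that other tissues use, such as *Cpa3* of mast cells and *Sel1l* of the endoplasmic reticulum. The 6 pancreatic amylase genes in this list had no probe set of their own, so that these medians and counts leave them out. Probe sets shared by several amylase names, given under Other observations, did stand higher on WT-CT. They lay 1.98 to 2.27 above the highest of the other arrays on the log2 scale. All 10 acinar transcription factors were measured, with medians of -0.06, -0.11 and 0.08 in the same comparisons. Of them 0, 1 and 0 were lower, against the same shares of all genes. The acinar regulators *Ptf1a* (4.58 on cKO-CT, 4.54 on WT-HFD, 4.80 on cKO-HFD and 4.99 on WT-CT) and *Bhlha15* (4.87, 5.01, 5.41 and 5.08 in that order of arrays) were in the background on every array. *Rbpjl* was at 5.27, 5.54, 5.65 and 5.53, above the background on every array but cKO-CT. *Nr5a2* was at 5.33, 4.94, 5.58 and 5.27, above the background on cKO-CT and cKO-HFD. Of the islet markers, *Ins2* (4.58 on cKO-CT, 4.69 on WT-HFD, 4.78 on cKO-HFD and 4.91 on WT-CT), insulin, and *Gcg* (4.04, 3.87, 4.28 and 4.47), glucagon, were in the background on every array. Others, such as *Mafa*, *Pyy*, *Ppy* and *Chga*, lay above it on all 4 arrays. Of the 19 islet genes measured of 22, 5 lay above it on cKO-CT, 4 on WT-HFD, 7 on cKO-HFD and 6 on WT-CT. The medians of the 19 were -0.13, -0.11 and -0.03. The 12 duct genes measured of 14 had medians of -0.11, -0.06 and -0.05. The 14 salivary gland genes measured of 19 had medians of -0.20, -0.17 and -0.06. Over 161 genes of 11 lists, 0 stood above each other array on WT-CT by 1.5-fold, against 0.461% of all genes. A count of 0 thus lies near the share of all genes.

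**Figure D4:**
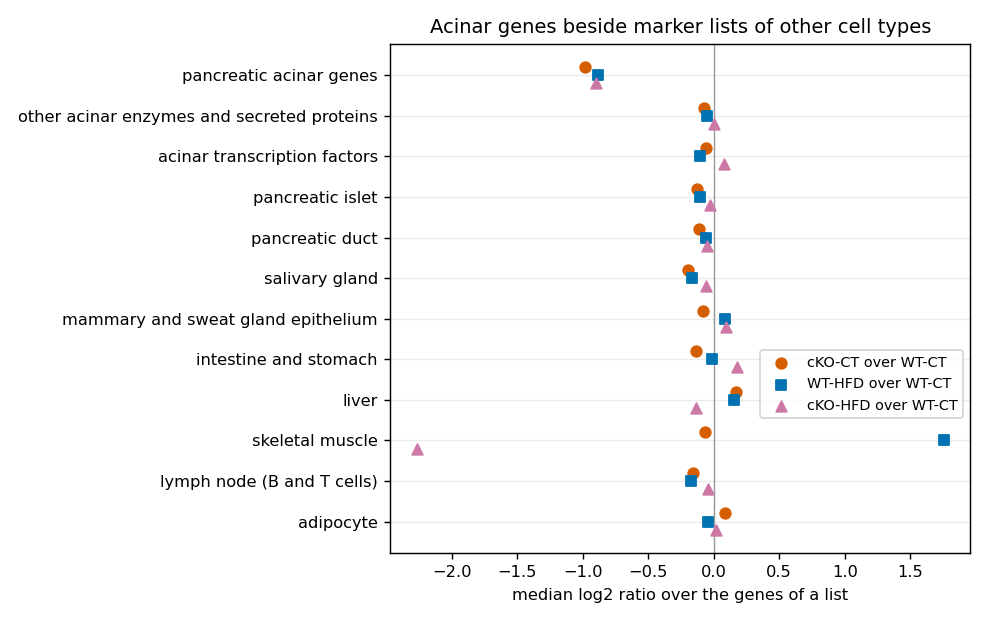
Median log2 ratio (horizontal axis) of the acinar genes and of 11 marker lists (rows) for the 3 comparisons over WT-CT, 1 array each. With cKO-CT first and cKO-HFD last, the acinar genes lie at -0.99, -0.88 and -0.90 and the adipocyte list at 0.08, -0.05 and 0.01, while skeletal muscle lies at -0.07, 1.76 and -2.27.

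Skeletal muscle genes, which mark muscle fibres, varied more than the acinar genes and in a different order of arrays. In WT-HFD over WT-CT, 16 of the 19 muscle genes were higher by 1.5-fold, against 3.16% of all genes. In cKO-HFD over WT-CT, 19 were lower, against 3.41%. In cKO-CT over WT-CT, 3 were lower, against 1.52%, and 1 was higher, against 1.64%. The 19 genes had summed linear levels of 19177 on cKO-CT, 57469 on WT-HFD, 4470 on cKO-HFD and 18858 on WT-CT. On cKO-CT and WT-CT these sums lay close together, while the summed acinar levels were 925 and 2783. In the acinar sums, 22 of the 30 genes were in the background on cKO-CT and 12 on WT-CT. The part of pancreatic RNA in the level of the WT-CT pool was not tested, and with 1 pool per group a difference between pools and a difference between groups cannot be told apart.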

How the data were processed

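Subcutaneous adipose RNA of each group was pooled and hybridised to 1 Affymetrix MoGene 1.0 ST array. The authors deposited 1 log2 value per probe set and array. They had run RMA, a procedure of background correction, quantile normalization and probe summary. The methods name RMA-Sketch of the APT suite, and the submitters' processing notes name Affymetrix Expression Console and RMA. Quantile normalization sets all arrays to 1 distribution. The detection P values of the study were not used here. No column of the authors' own comparisons was used.

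Of 35556 probe sets, 21789 carried 1 gene name in the platform annotation, which can be old, 1621 several and 12146 none. Gene levels were averaged over the probe sets naming that gene alone. Log2 ratios were differences of levels. With 1 array per group no test, p-value or SD exists. Members and lists were chosen with earlier results of these data known, and the genes named are all members, *Napepld*, up to 6 genes of each list and the leading non-members of WT-CT. *Fabp2*, *Alpi*, *Sis*, *Ptf1a*, *Bhlha15*, *Nr5a2*, *Ins2* and *Gcg* fell outside that rule and were named after their values were seen. The comparison of cKO-HFD with cKO-CT and the count on WT-CT with background levels set to the background were added after seeing the data. The steps, run in Python (version 3.11.15; numpy, 2.4.6; pandas, 2.3.3; matplotlib for plots, 3.10.9), were tested on simulated data. Alternatives were median centring, cyclic loess (limma 3.58.1 in R 4.3.3, span 0.7, 3 iterations), a 2-fold size, a mean level of at least 6, genes above background on at least 1 array, the *Olfr* 99th percentile, the highest probe set and a list without members used widely in other tissues.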

Additional observations from a re-analysis of the deposited data

Results flagged for a closer look

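*Zg16* stood out because its genotype difference and its diet difference each ran in opposite directions. Its log2 ratio was 0.95 in cKO-HFD over WT-HFD and -1.60 in cKO-CT over WT-CT, and 1.30 in cKO-HFD over cKO-CT and -1.25 in WT-HFD over WT-CT. The difference was not tested, since each group had 1 array, and on cKO-CT and WT-HFD the *Zg16* level did not reach the *Olfr* background. At its bound it was at least 1.40-fold higher in cKO-HFD over WT-HFD.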

How the results depend on the processing

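No called difference turned its direction, and all 150 single-gene log2 ratios moved by less than the spread of ratios at their level under median centring and cyclic loess. In the 3 comparisons over WT-CT (cKO-CT first, cKO-HFD last), the lower genes numbered 14, 13 and 13 at 2-fold, 18, 19 and 17 with arrays centred on their medians and 17, 19 and 17 after cyclic loess. For the counts in this section the share of all genes was not taken under the same setting, so they show only how the acinar counts moved. Restricting the list to 7 genes with a mean level of at least 6 left 6, 6 and 6 lower, with medians of -1.50, -1.11 and -1.20. Fewer genes entered, and the mean included WT-CT. *Ctrb1*, *Cpa1* and *Try5* lay below 6 on each of the other arrays and entered only through WT-CT. This choice therefore favours genes high on WT-CT and lends no support. With these 7 genes, 0 were lower and 0 higher in cKO-HFD over WT-HFD, and 0 higher in cKO-HFD over cKO-CT. Over the 18 genes above background on at least 1 array the medians were -1.69, -1.41 and -1.40, but all 18 passed on WT-CT, 8 of them there alone, so that this choice favours genes high on WT-CT and lends no support. There 1 gene was higher in cKO-HFD over cKO-CT. Without members used widely elsewhere, 24 genes had medians of -0.998 in WT-HFD over WT-CT and -1.15 in cKO-HFD over WT-CT. There 0 were higher in cKO-HFD over WT-HFD and 1 in cKO-HFD over cKO-CT. The measured genes left out were *Cela1*, *Tff2*, *Dmbt1*, *Zg16*, *Reg3b* and *Pnliprp2*. Of these only *Zg16* had been lower by 1.5-fold in a comparison over WT-CT, and 18, 18 and 17 of the 24 were lower. The larger medians thus follow from leaving out genes that differed little, and this choice lends no support. At 2-fold, 0 were lower and 0 higher in cKO-HFD over WT-HFD and 1 was higher in cKO-HFD over cKO-CT, as after cyclic loess (1). Against the *Olfr* 99th percentile, 4 genes lay above background on cKO-CT, 3 on WT-HFD, 1 on cKO-HFD and 15 on WT-CT. Calls lost by scaling were those of *Prss3* and *Gp2*. With the highest probe set of each gene, 7 acinar genes lay above background on cKO-CT in place of 8, and the other counts stayed, each acinar gene having 1 probe set. No paired analysis was possible because each group had 1 array, which also leaves no array to leave out. Signal near background limits the folds of most genes to lower bounds or leaves none.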

Other observations

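Probe sets that name several genes of a family entered no count or median above. Of 6 that name only amylase genes, 4 held identical values, at 6.29 on cKO-CT, 6.54 on WT-HFD, 6.41 on cKO-HFD and 8.52 on WT-CT. The 2 others stood at 4.99 on cKO-CT, 5.15 on WT-HFD, 4.88 on cKO-HFD and 7.42 on WT-CT, and at 5.80, 6.01 and 5.98 on those arrays, against 8.13 on WT-CT. Amylase digests starch and is made by pancreas and salivary gland. The gene *Amy1*, the salivary and liver form, had a probe set of its own, at 8.96 on cKO-CT, 8.77 on WT-HFD, 8.54 on cKO-HFD and 9.11 on WT-CT. Of 2 probe sets that name only trypsin-family genes, 1 stood at 5.48 on cKO-CT, 5.49 on WT-HFD, 5.69 on cKO-HFD and 6.38 on WT-CT, and 1 at 4.94, 4.93 and 5.11 on those arrays, against 5.39 on WT-CT.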
